A study of Mus musculus with 18 samples.

Results

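The transcripts are those of 50 mouse genes picked by symbol for the core proteins of the small nuclear ribonucleoproteins (snRNPs) of the spliceosome. The symbols also take in relatives that are not core proteins of these snRNPs, such as Lsm10, Lsm11 and Lsm14a. The 50 genes were chosen from the 17714 gene labels of the count table. Taken was every label that starts with Snrp, with Lsm and a digit, with Sf3a or Sf3b, with Prpf or with U2af. The rule reads symbols and no measured value, though the genes were proposed with earlier results of these data known. Joint labels that fuse a member with a neighbouring gene were left out, which concerned 2 labels with 5 and 2 reads. The 50 genes held 521 of the 114425 isoforms and 35556 of the 10234812 reads. All 50 symbols matched a protein-coding gene of RefSeq. By role, 8 encode proteins of the Sm ring, 8 encode LSm1 to LSm8, 5 are other LSm genes, 4 are specific to the U1 or U2 snRNP, 9 encode subunits of SF3a and SF3b, 13 are Prpf genes and 3 encode U2AF subunits. The 16 Sm and LSm1 to LSm8 genes are called small below, and the 22 Sf3 and Prpf genes large, after the size of most of their proteins; Sf3b5 and Sf3b6 were kept among the large by their symbol although their products are small.

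The study compared small extracellular vesicles (sEVs), membrane particles released by cells, with the cultures that released them. Primary mouse brain cultures of astrocytes, microglia and neurons were used, and polyadenylated RNA was read as full-length cDNA on a PacBio long-read instrument. There were 6 groups of 3 libraries: astrocyte cells, astrocyte sEVs, microglia cells, microglia sEVs, neuron cells and neuron sEVs. No treatment, strain, age or genotype was labelled. Whether the 3 libraries of a group came from separate cultures is not stated, and the p-values therefore describe the spread among these libraries, which may be technical.

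The spliceosome removes introns from pre-mRNA and is built from the U1, U2, U4, U5 and U6 snRNPs. Each of the U1, U2, U4 and U5 RNAs carries a ring of Sm proteins, and U6 carries a ring of the related LSm proteins, while SF3a, SF3b and U2AF settle the U2 snRNP on the branch site and the 3′ end of the intron. Prpf proteins assemble, activate and remodel the machine, and in brain the Sm protein SmB is largely replaced by SmN, the product of the imprinted gene Snrpn.

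Library totals ran from 434298 to 683381 reads, of which 901 to 3324 belonged to the 50 genes. No isoform was listed with 1 read in any library, the lowest entry being 2, and a listed 0 allows up to 3 reads. All cell libraries shared a sequencing pool and all sEV libraries another, and the effects of fraction and pool cannot be told apart. Reads of mitochondrial genes made up 0.82% to 7.67% of the cell libraries and 0.05% to 0.64% of the sEV libraries. The predicted gene Gm42047 took 6.76% of the reads of astrocyte sEV library 1 and 8.94% of neuron sEV library 1, and at most 1.63% elsewhere. Each culture carried its own markers: the summed level of the 8 astrocyte markers was 22501 to 25622 RPM (reads per 1000000 reads) in astrocyte cells, that of the 9 microglia markers 7426 to 10246 RPM in microglia cells, and that of the 9 neuron markers 4788 to 5709 RPM in neuron cells. Astrocyte markers also summed to 2888 to 3186 RPM in neuron cells. In neuron sEVs they summed to 2661 to 3719 RPM, where the neuron markers summed to 1321 to 1956 RPM. The 6 oligodendrocyte markers in the table summed to 4178 to 8982 RPM in astrocyte cells and 1950 to 3067 RPM in astrocyte sEVs. Microglia markers summed to 0 to 71.7 RPM in astrocyte sEVs and to 0 to 5.99 RPM in neuron sEVs. The part of these other cells and of the mitochondrial share in the results below was not tested.

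Levels are given as CPM (counts per 1000000) of the TMM-scaled library size, in the order of libraries 1, 2 and 3 of a group. They are shares of a library and not amounts per cell or per vesicle, and in these bulk samples fewer cells of a type and less RNA per cell cannot be told apart. Genes were tested with edgeR's quasi-likelihood F test on counts, adjusted by the Benjamini-Hochberg method over the 8184 genes that passed the filter on low counts, with a threshold of 0.05. Of the 50 genes, 45 passed that filter; Lsm5, Lsm11, Snrpf, Snrpg and Prpf40b did not.

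Where sEVs differed from their source cells on average over the 3 cell types, 6 of 11 tested LSm transcripts were higher and 0 lower, 10 of 21 tested SF3 and Prpf transcripts were lower and 2 higher, and of 6 tested Sm ring transcripts 1 was higher and 0 lower. The mean of the within-type differences passed the test for 22 of the 45 genes, 10 higher and 12 lower, where over all genes tested 33.9% passed, 14.5% higher and 19.5% lower. Among the 13 small genes tested, 5 were higher and 0 lower, and their median log2 difference was 0.76. Among the 21 large genes tested, 2 were higher and 10 lower, and their median log2 difference was -1.06; over all genes tested it was -0.15. The 6 higher LSm genes were 4 of the 7 LSm1 to LSm8 genes and 2 of the 4 other LSm genes. In the Sm ring 4 genes lay above 0 and 2 below, and its share of higher calls was near that over all genes. Of the 9 tested SF3 genes 5 were lower and 1 higher, and of the 12 tested Prpf genes 5 were lower and 1 higher.

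**Figure D1:**
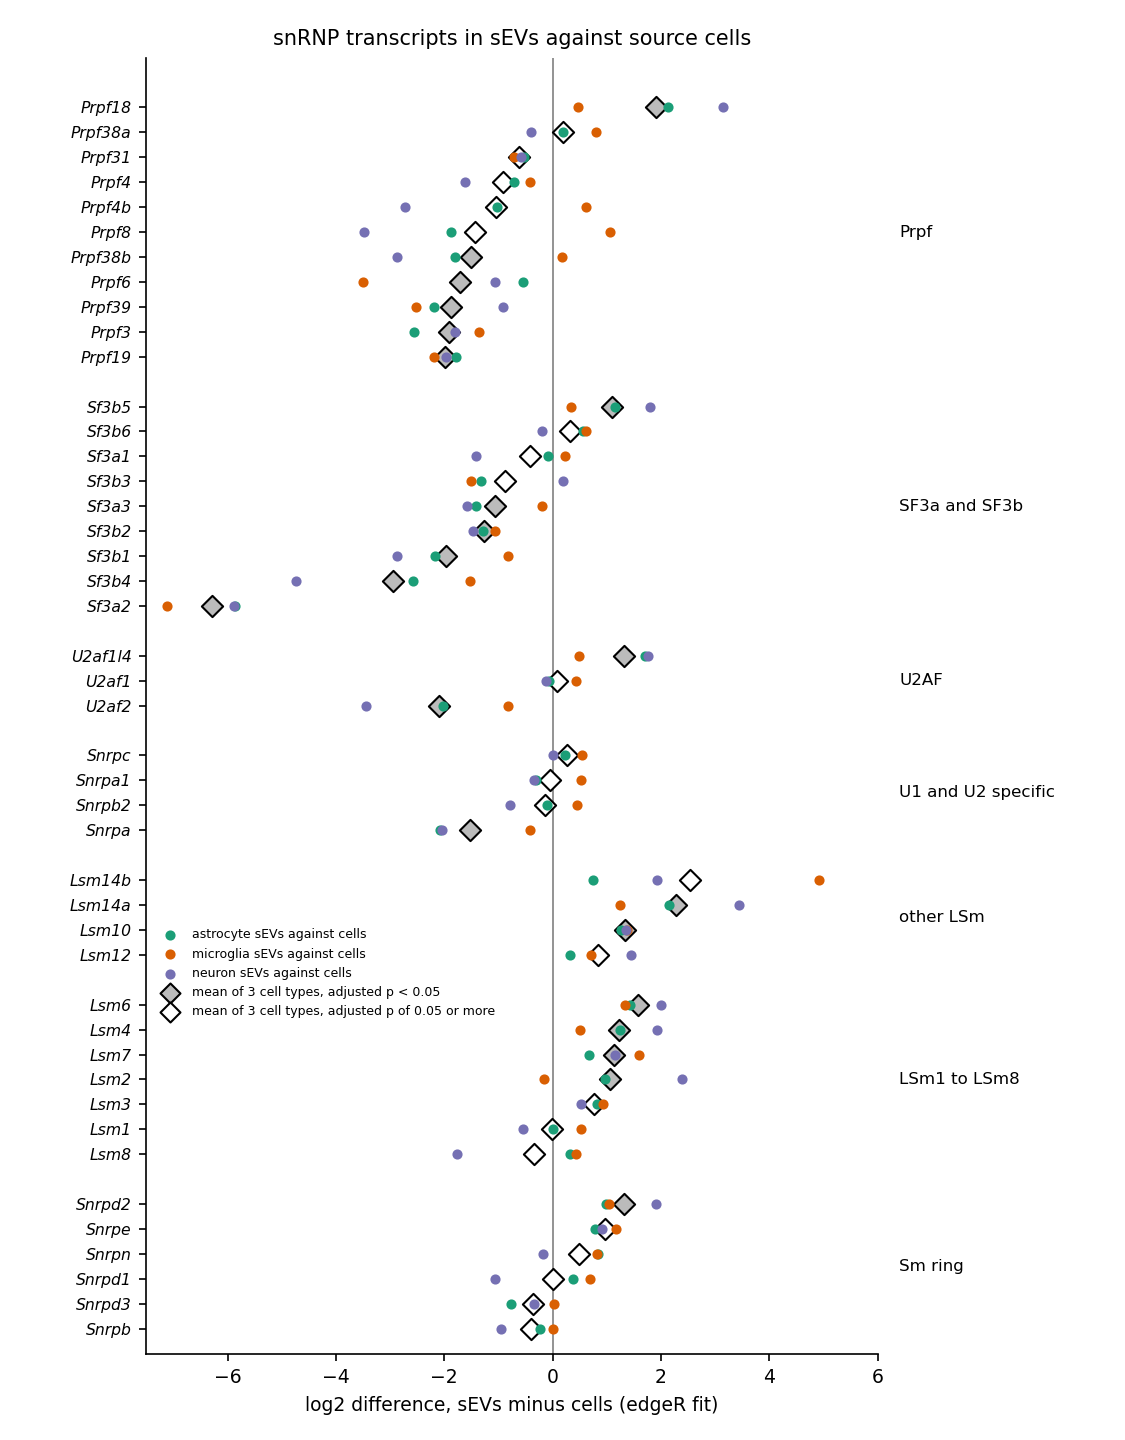
The log2 difference of sEVs minus cells (x axis, from the edgeR fit) is drawn for tested genes (rows, grouped by role). Coloured points are the 3 cell types and diamonds their mean, grey where the adjusted p was under 0.05; most LSm rows lie right of 0 and most SF3 and Prpf rows left of it.

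The promoters of these genes were searched for motifs that higher and lower members might share or not. RefSeq promoter entries of build GRCm38.p6 matched 40 of the 50 genes by symbol, with 51 entries, and the 250 bases before the annotated start were searched on both strands for short motifs. A long form of the motif of ETS factors (CCGGAAG, or CTTCCGG on the other strand) was searched, and shorter forms were not counted. It was found in 13 of the 40, beside 7.83% of the 27025 genes in the table. In both counts a gene was taken where any of its entries held it. By entry it was in 14 of the 51, beside 6.91% of the 32851 entries in the table. Of the genes lower in sEVs it was found in 5 of 10 with an entry, and of those higher in 0 of 7. The other matches among the 13 genes lay in genes called in neither direction or not tested, such as Sf3b6 and Snrpc. Whether the motif goes with the direction of the difference was not tested. The GC box (GGGCGG or CCGCCC) was found in 23 of the 40 genes (35.4% of all genes), the CCAAT box (CCAAT or ATTGG) in 17 (37.5%), the TATA box (TATAAA or TTTATA) in 3 (14.3%), the YY1 motif (AAGATGGCG or CGCCATCTT) in 1, Lsm7 (0.710%), and the NRF1 motif in 0 (0.877%). None of these motifs contains another, and a match is only a run of letters. 4 promoters are shown, 5′ to 3′ on the gene's strand with motif matches in capitals, picked for what they hold. Sf3a2, Sf3a3 and Prpf19 were lower in sEVs and each has a match to the long ETS form. Prpf19 has another entry, not shown, that holds a CCAAT box and no match to that form. Snrpd2 was higher and has a GC box and no such match, though it holds the shorter run CGGAAG, which was not counted. Lower genes without a match, such as Sf3b1 and Snrpa, are not shown. The 4 promoters lie at chr10:80798485-80798734, plus strand, at chr4:124714611-124714860, plus strand, at chr19:10894981-10895230, plus strand, and at chr7:19149588-19149837, plus strand, in that order.
Sf3a2: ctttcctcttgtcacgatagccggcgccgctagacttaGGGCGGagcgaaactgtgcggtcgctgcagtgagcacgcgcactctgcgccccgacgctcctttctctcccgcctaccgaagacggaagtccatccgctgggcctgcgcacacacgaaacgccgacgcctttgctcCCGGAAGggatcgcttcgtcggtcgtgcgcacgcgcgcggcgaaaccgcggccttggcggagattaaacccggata
Sf3a3: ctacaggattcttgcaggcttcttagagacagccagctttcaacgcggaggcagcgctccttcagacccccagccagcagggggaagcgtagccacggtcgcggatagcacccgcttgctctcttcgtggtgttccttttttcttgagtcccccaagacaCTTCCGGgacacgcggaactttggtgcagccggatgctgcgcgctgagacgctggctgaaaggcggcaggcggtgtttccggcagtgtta
Prpf19: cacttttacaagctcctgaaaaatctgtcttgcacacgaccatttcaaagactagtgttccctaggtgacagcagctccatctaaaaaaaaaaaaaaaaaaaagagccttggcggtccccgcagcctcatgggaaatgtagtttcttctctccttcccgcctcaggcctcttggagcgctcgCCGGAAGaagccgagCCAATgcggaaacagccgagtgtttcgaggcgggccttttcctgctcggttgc
Snrpd2: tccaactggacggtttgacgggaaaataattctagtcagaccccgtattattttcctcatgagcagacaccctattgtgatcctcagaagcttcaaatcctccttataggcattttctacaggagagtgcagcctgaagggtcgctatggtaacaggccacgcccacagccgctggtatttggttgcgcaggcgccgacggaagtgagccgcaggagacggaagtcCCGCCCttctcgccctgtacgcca

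The LSm1 to LSm8 proteins form a pair of rings: LSm2 to LSm8 bind the end of U6 RNA in the nucleus, and LSm1 to LSm7 bind shortened mRNA tails in the cytoplasm. Lsm6, shared by both rings, was at 70.2, 72 and 41 CPM in astrocyte cells and 134, 186 and 172 CPM in astrocyte sEVs. It was at 9.58, 42.5 and 13.7 CPM in microglia cells and 45.3, 33 and 87.1 CPM in microglia sEVs, and at 55.2, 44.4 and 41 CPM in neuron cells and 156, 177 and 233 CPM in neuron sEVs. Astrocyte and neuron sEVs lay above their cells in every library, while the 2 microglia groups overlapped, and the mean difference passed the test (log2 difference 1.59 ± 0.27 (SE), adjusted p = 1.6e-04). Lsm7, also shared by both rings, was at 34.4, 59.6 and 41 CPM in astrocyte cells and 73.6, 60.1 and 81.7 CPM in astrocyte sEVs. It was at 22.3, 14.2 and 9.16 CPM in microglia cells and 54.4, 44.6 and 37.8 CPM in microglia sEVs, and at 74.1, 56.6 and 68.9 CPM in neuron cells and 169, 99.2 and 174 CPM in neuron sEVs. The sEV libraries of Lsm7 lay above the cell libraries in all 3 cell types (log2 difference 1.14 ± 0.23 (SE), adjusted p = 6.9e-04). Lsm4 ranged over 28.7 to 81.1 CPM (median 51.6) in the 9 cell libraries and 38.8 to 303 CPM (median 111) in the 9 sEV libraries (log2 difference 1.23 ± 0.22 (SE), adjusted p = 3.1e-04). Lsm2 ranged over 8.21 to 18.4 CPM (median 14.2) in the 9 cell libraries and 13.1 to 71.1 CPM (median 20.7) in the 9 sEV libraries (log2 difference 1.07 ± 0.32 (SE), adjusted p = 0.014), and its highest values were the neuron sEVs at 53.1, 69.6 and 71.1 CPM. The call for Lsm2 was lost where no filter on low counts was applied (adjusted p = 0.21).

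The members that tell the rings apart were not called. Lsm8, which makes the ring nuclear, ranged over 7.06 to 24.6 CPM (median 17) in the 9 cell libraries and 0 to 25.8 CPM (median 13.6) in the 9 sEV libraries (log2 difference -0.34 ± 0.50 (SE), adjusted p = 0.76). Lsm1, which makes it cytoplasmic, ranged over 21.5 to 62.4 CPM (median 37.4) in the 9 cell libraries and 21.3 to 67.1 CPM (median 36.5) in the 9 sEV libraries (log2 difference -0.01 ± 0.29 (SE), adjusted p = 1.0). In neurons both lay lower in every sEV library than in any cell library, which none of the other LSm genes tested did. Lsm3 ranged over 7.89 to 18.6 CPM (median 12.2) in the 9 cell libraries and 12.7 to 33.6 CPM (median 24.4) in the 9 sEV libraries (log2 difference 0.76 ± 0.36 (SE), adjusted p = 0.12).

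Transcripts of LSm genes outside these rings were higher where called. Lsm10, a subunit of the U7 snRNP that processes histone mRNA, was at 33, 33.2 and 36.7 CPM in astrocyte cells and 72.3, 81.5 and 94.6 CPM in astrocyte sEVs. It was at 16, 19.8 and 9.16 CPM in microglia cells and 41.7, 48.5 and 26.3 CPM in microglia sEVs, and at 23.7, 24.5 and 21.3 CPM in neuron cells and 44.8, 63.3 and 71.1 CPM in neuron sEVs. Its sEV libraries lay above its cell libraries in all 3 cell types (log2 difference 1.33 ± 0.24 (SE), adjusted p = 3.5e-04). Lsm14a, a cytoplasmic protein of processing bodies that represses translation, ranged over 0 to 32 CPM (median 7.89) in the 9 cell libraries and 0 to 64.1 CPM (median 44.3) in the 9 sEV libraries (log2 difference 2.28 ± 0.69 (SE), adjusted p = 0.015). The call for Lsm14a was lost when only full-splice-match isoforms were counted (adjusted p = 0.41). Lsm12 (log2 difference 0.83 ± 0.48 (SE), adjusted p = 0.21) and Lsm14b (log2 difference 2.54 ± 1.25 (SE), adjusted p = 0.14) did not pass the test. Lsm11, the partner of Lsm10 in the U7 ring, had reads in neuron cell libraries 1 and 2 only, at 6.31 and 7.65 CPM.

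In the Sm ring, Snrpd2 (SmD2) was the gene that passed the test. It was at 22.9, 37.4 and 31.1 CPM in astrocyte cells and 71.1, 42.7 and 67.4 CPM in astrocyte sEVs. It was at 22.3, 22.7 and 11.4 CPM in microglia cells and 38.1, 44.6 and 32.9 CPM in microglia sEVs, and at 50.5, 52 and 44.3 CPM in neuron cells and 179, 129 and 245 CPM in neuron sEVs. The groups did not overlap in any cell type, and neuron sEVs held the highest values (log2 difference 1.31 ± 0.23 (SE), adjusted p = 1.9e-04). The call for Snrpd2 was lost with full-splice-match isoforms only (adjusted p = 0.32). Its full-splice match tested as a single isoform did not pass (log2 difference 0.67, adjusted p = 0.57). That isoform held 0 of 47 gene reads in astrocyte sEV library 3 and 5 of 108 in neuron sEV library 1. In the other sEV libraries it held most of the reads of the gene. Snrpe (SmE) ranged over 6.39 to 18.1 CPM (median 11.3) in the 9 cell libraries and 6.57 to 33.2 CPM (median 25.8) in the 9 sEV libraries (log2 difference 0.96 ± 0.43 (SE), adjusted p = 0.10). Snrpd3 (SmD3) ranged over 53.8 to 184 CPM (median 115) in the 9 cell libraries and 25.3 to 137 CPM (median 80.5) in the 9 sEV libraries (log2 difference -0.36 ± 0.28 (SE), adjusted p = 0.4). Snrpd1 (SmD1) ranged over 12.8 to 44.3 CPM (median 25.8) in the 9 cell libraries and 0 to 43.9 CPM (median 31) in the 9 sEV libraries (log2 difference 0.00 ± 0.47 (SE), adjusted p = 1.0). Of the untested ring genes, Snrpf ranged over 0 to 14.8 CPM (median 4.58) in the 9 cell libraries and 0 to 23.1 CPM (median 8.6) in the 9 sEV libraries, and Snrpg over 0 to 4.92 CPM (median 2.77) in the 9 cell libraries and 0 to 26.7 CPM (median 7.76) in the 9 sEV libraries.

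Among genes of proteins specific to 1 snRNP, the transcript of Snrpa, whose product binds a stem-loop of U1 RNA, was lower in sEVs. It was at 138, 108 and 127 CPM in astrocyte cells and 24.5, 33 and 30.1 CPM in astrocyte sEVs. It was at 47.9, 28.3 and 34.3 CPM in microglia cells and 21.7, 27.2 and 32.9 CPM in microglia sEVs, and at 86.7, 82.7 and 72.2 CPM in neuron cells and 23.2, 16.9 and 17.8 CPM in neuron sEVs. The fall was between groups that did not overlap in astrocytes and neurons, whereas the microglia groups overlapped (log2 difference -1.52 ± 0.21 (SE), adjusted p = 2.2e-05). Snrpc, which helps U1 pair with the 5′ splice site, ranged over 34.3 to 63.1 CPM (median 52.6) in the 9 cell libraries and 25.2 to 73.1 CPM (median 65.2) in the 9 sEV libraries (log2 difference 0.26 ± 0.23 (SE), adjusted p = 0.48). The U2 protein genes Snrpa1 (log2 difference -0.05 ± 0.18 (SE), adjusted p = 1.0) and Snrpb2 (log2 difference -0.15 ± 0.35 (SE), adjusted p = 0.95) did not pass the test.

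Transcripts of the U2AF subunits, proteins that read the polypyrimidine tract and the end of the intron, went different ways. U2af1l4, which encodes U2AF26, a relative of the small subunit, was at 31.5, 40.2 and 33.9 CPM in astrocyte cells and 93, 132 and 120.4 CPM in astrocyte sEVs. It was at 47.9, 25.5 and 57.2 CPM in microglia cells and 52.6, 81.5 and 51 CPM in microglia sEVs, and at 58.4, 50.5 and 52.5 CPM in neuron cells and 166, 196 and 190.2 CPM in neuron sEVs. It rose between groups that did not overlap in astrocytes and neurons (log2 difference 1.32 ± 0.20 (SE), adjusted p = 4.1e-05). U2af2, the large subunit, ranged over 11.3 to 53 CPM (median 26.3) in the 9 cell libraries and 0 to 27.9 CPM (median 6.33) in the 9 sEV libraries and was lower (log2 difference -2.1 ± 0.55 (SE), adjusted p = 0.0063). U2af1, the small subunit, ranged over 68.9 to 125 CPM (median 101) in the 9 cell libraries and 54.7 to 192 CPM (median 92.4) in the 9 sEV libraries (log2 difference 0.09 ± 0.21 (SE), adjusted p = 0.95). U2af1l4 overlaps the gene Psenen in RefSeq and whether counting used the strand was not given in the sources used here, so reads of the 2 genes may not be fully separated. The same holds for 7 other members that overlap a protein-coding gene, among them Snrpa, Snrpn, Sf3b3, Prpf38a and Prpf39.

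SF3a and SF3b are the parts of the U2 snRNP that hold the branch site. Sf3a2 was at 20.1, 8.31 and 8.48 CPM in astrocyte cells, 22.3, 36.8 and 29.8 CPM in microglia cells and 12.6, 16.8 and 8.21 CPM in neuron cells, and had 0 reads in all 9 sEV libraries. Against the floor of 3 reads per library it was at least 2.63-fold lower in astrocyte sEVs, at least 5.49-fold lower in microglia sEVs and at least 2.26-fold lower in neuron sEVs, with an adjusted p of 5.9e-05 for the mean. It was the 1 member with no overlap between all 9 cell and all 9 sEV libraries, a separation in the lower direction that 3.84% of all genes tested had; 0 members were separated in the higher direction, where 0.965% of all genes were. Sf3a3 was at 58.8, 45.7 and 45.2 CPM in astrocyte cells and 15.5, 15.5 and 24.4 CPM in astrocyte sEVs. It was at 92.6, 99.1 and 124 CPM in microglia cells and 92.4, 115 and 69 CPM in microglia sEVs, and at 52, 49 and 57.4 CPM in neuron cells and 19.9, 16.9 and 16 CPM in neuron sEVs. The groups of Sf3a3 were apart in astrocytes and neurons and overlapped in microglia, where the level stayed high in both fractions (log2 difference -1.06 ± 0.21 (SE), adjusted p = 6.3e-04). Sf3a1 did not pass the test (log2 difference -0.42 ± 0.55 (SE), adjusted p = 0.7).

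Sf3b1, the scaffold of SF3b that clamps the branch site, was at 403, 474 and 415 CPM in astrocyte cells and 118, 3.88 and 160.5 CPM in astrocyte sEVs. It was at 619, 578 and 643 CPM in microglia cells and 297, 409.6 and 329 CPM in microglia sEVs, and at 451, 317 and 407 CPM in neuron cells and 106, 19 and 32 CPM in neuron sEVs. Every sEV library lay below every cell library of its type (log2 difference -1.96 ± 0.38 (SE), adjusted p = 6.1e-04), and astrocyte sEV library 2 stood far below the other astrocyte sEV libraries. Sf3b4, an RNA-binding subunit of SF3b, was at 120.4, 98.3 and 109 CPM in astrocyte cells and 7.75, 15.5 and 31.5 CPM in astrocyte sEVs. It was at 201, 184 and 192 CPM in microglia cells and 52.6, 97.1 and 51 CPM in microglia sEVs, and at 85.2, 81.1 and 98.5 CPM in neuron cells and 3.32, 6.33 and 0 CPM in neuron sEVs. Its groups did not overlap in any cell type and neuron sEVs held the lowest values (log2 difference -2.95 ± 0.32 (SE), adjusted p = 1.1e-06). Sf3b2 ranged over 73.2 to 135 CPM (median 91.9) in the 9 cell libraries and 0 to 74.6 CPM (median 44.6) in the 9 sEV libraries and was lower (log2 difference -1.27 ± 0.43 (SE), adjusted p = 0.031). Sf3b3 did not pass the test (log2 difference -0.87 ± 0.50 (SE), adjusted p = 0.21).

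Sf3b5, a small subunit of SF3b, was the SF3 gene that was higher. It was at 37.3, 51.2 and 36.7 CPM in astrocyte cells and 121, 44.6 and 110.3 CPM in astrocyte sEVs. It was at 76.6, 70.8 and 54.9 CPM in microglia cells and 70.7, 113 and 72.3 CPM in microglia sEVs, and at 63.1, 62.8 and 47.6 CPM in neuron cells and 206, 171 and 231 CPM in neuron sEVs. Its groups were apart in neurons and overlapped in astrocytes and microglia (log2 difference 1.1 ± 0.21 (SE), adjusted p = 6.0e-04). Sf3b6, which touches the branch-site adenosine, ranged over 16 to 59.6 CPM (median 38.3) in the 9 cell libraries and 12.7 to 93 CPM (median 57.5) in the 9 sEV libraries (log2 difference 0.33 ± 0.31 (SE), adjusted p = 0.52).

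**Figure D2:**
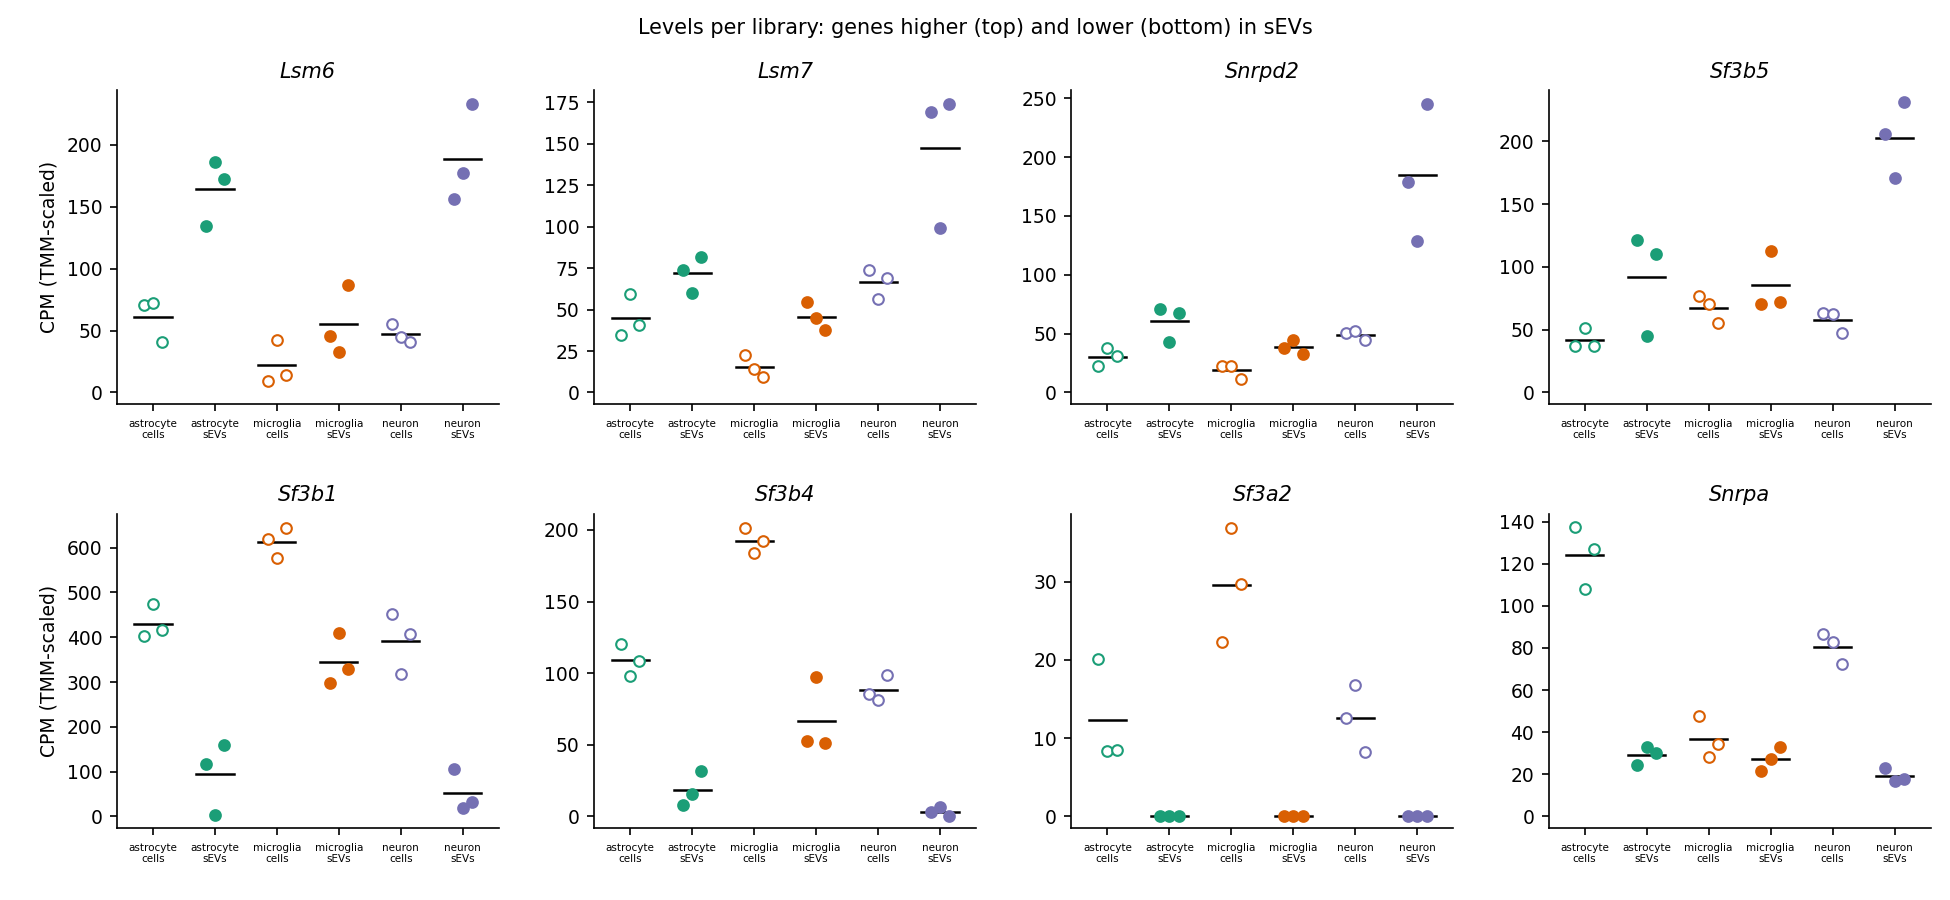
CPM of TMM-scaled library size (y axes, linear) is drawn for 8 genes in the 6 groups (x axes); each point is a library, open for cells and filled for sEVs, and the line is the mean of 3. Lsm6, Lsm7, Snrpd2 and Sf3b5 in the top row were higher in sEVs on average, and Sf3b1, Sf3b4, Sf3a2 and Snrpa in the bottom row lower, with Sf3a2 at 0 in all 9 sEV libraries.

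Of the 12 Prpf genes tested, 5 were lower in sEVs and 1 was higher. Prpf19, a ubiquitin ligase that forms its own complex in the activated spliceosome, was at 98.9, 101 and 80.5 CPM in astrocyte cells and 19.4, 27.2 and 34.4 CPM in astrocyte sEVs. It was at 31.9, 42.5 and 38.9 CPM in microglia cells and 0, 7.76 and 16.4 CPM in microglia sEVs, and at 72.6, 64.3 and 68.9 CPM in neuron cells and 24.9, 14.8 and 12.4 CPM in neuron sEVs. Its groups did not overlap in any cell type (log2 difference -1.98 ± 0.36 (SE), adjusted p = 3.5e-04). Prpf6, which bridges the U5 snRNP to U4 and U6, was at 47.3, 38.8 and 42.4 CPM in astrocyte cells and 10.3, 46.6 and 31.5 CPM in astrocyte sEVs. It was at 44.7, 36.8 and 66.4 CPM in microglia cells and 0, 5.82 and 6.57 CPM in microglia sEVs, and at 42.6, 30.6 and 39.4 CPM in neuron cells and 23.2, 10.5 and 19.6 CPM in neuron sEVs. The groups of Prpf6 were apart in microglia and neurons and overlapped in astrocytes (log2 difference -1.71 ± 0.40 (SE), adjusted p = 0.003). Prpf3, a U4 and U6 protein, ranged over 12.2 to 36.6 CPM (median 18.6) in the 9 cell libraries and 0 to 21.4 CPM (median 4.22) in the 9 sEV libraries (log2 difference -1.9 ± 0.59 (SE), adjusted p = 0.018). Prpf39, a U1-associated protein, ranged over 11.3 to 65.9 CPM (median 25.4) in the 9 cell libraries and 0 to 22.9 CPM (median 7.76) in the 9 sEV libraries (log2 difference -1.88 ± 0.63 (SE), adjusted p = 0.027).

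Prpf38b, a relative of the activation factor Prpf38a, was close to the threshold (log2 difference -1.5 ± 0.56 (SE), adjusted p = 0.049), and its call was lost without any 1 of 13 libraries. The calls of Prpf39 and Sf3b2 were lost without any 1 of 5 and any 1 of 6 libraries. Prpf18, which acts in the late catalytic step, was the Prpf gene that was higher: it ranged over 0 to 25.2 CPM (median 6.93) in the 9 cell libraries and 11.5 to 50.4 CPM (median 33.8) in the 9 sEV libraries (log2 difference 1.92 ± 0.58 (SE), adjusted p = 0.015). The other Prpf genes did not pass the test of the mean, among them Prpf8, the protein at the heart of the catalytic core (log2 difference -1.43 ± 0.64 (SE), adjusted p = 0.10), Prpf31 of the U4 snRNP (log2 difference -0.61 ± 0.25 (SE), adjusted p = 0.075), Prpf4 (log2 difference -0.91 ± 0.63 (SE), adjusted p = 0.32) and the kinase Prpf4b (log2 difference -1.04 ± 0.66 (SE), adjusted p = 0.26). Prpf40b was not tested and had reads in 1 astrocyte cell, 2 neuron cell, 1 microglia sEV and all 3 neuron sEV libraries, the last at 14.9, 10.5 and 14.2 CPM.

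Reads of small and large genes were set against each other within each library, where library size cancels. The log2 ratio of summed small to summed large reads was -0.63, -0.41 and -0.51 in astrocyte cells and 1.28, 1.04 and 0.96 in astrocyte sEVs. It was -2.17, -1.96 and -2.12 in microglia cells and -1.19, -1.57 and -1.30 in microglia sEVs. It was 0.95, 1.70 and 0.98 in neuron cells and 2.01, 2.78 and 2.30 in neuron sEVs. The sEVs lay above the cells in every cell type with no overlap. The sEV minus cell difference was 1.61 ± 0.11 (SE, n = 3 libraries a group) in astrocytes, a 3.05-fold change of the ratio, 0.73 ± 0.13 in microglia, a 1.66-fold change, and 1.16 ± 0.33 in neurons, a 2.23-fold change. As a score over chosen members it was given no test.

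One gene, Snrpn, held a large part of the small reads, with 1190, 1937 and 1159 reads in neuron cells. Without it the difference was 1.43 ± 0.12 in astrocytes, 0.72 ± 0.14 in microglia and 1.85 ± 0.16 in neurons. Without Snrpn and without Prpf38a, the large gene with the highest level in microglia sEVs, it was 1.55 ± 0.16, 1.11 ± 0.16 and 1.90 ± 0.18. Without the small proteins Sf3b5 and Sf3b6 among the large genes it was 1.90 ± 0.19, 0.78 ± 0.13 and 1.76 ± 0.39. The groups did not overlap in any cell type under these choices.

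**Figure D3:**
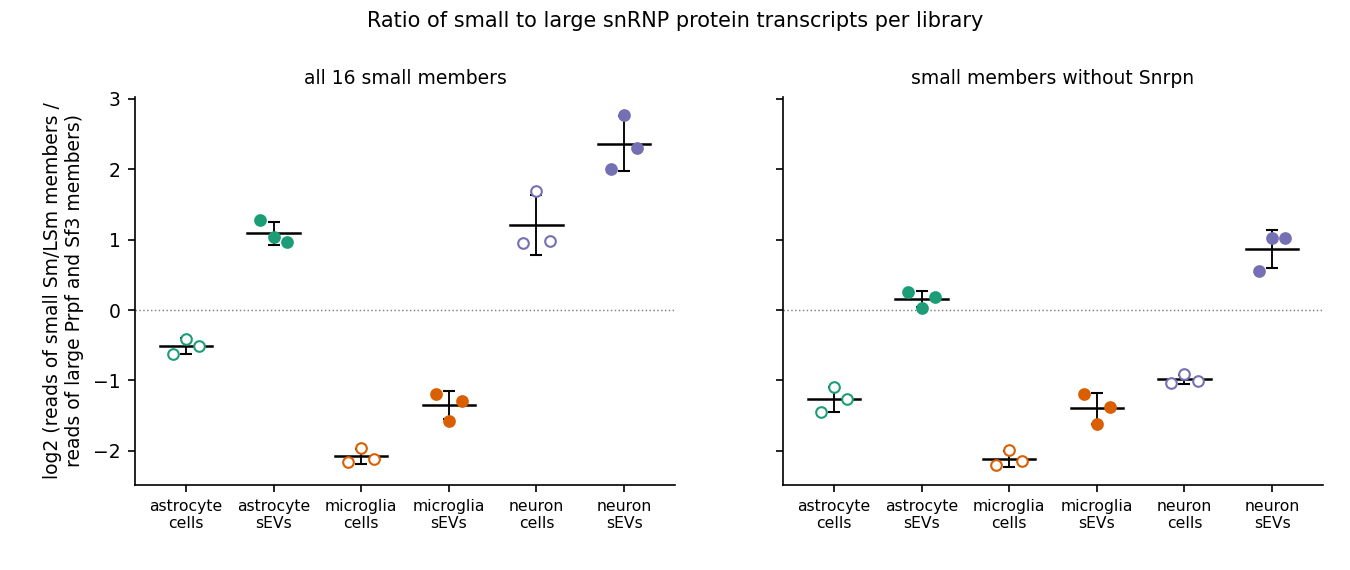
The log2 ratio of reads of small Sm and LSm1 to LSm8 genes to reads of large Prpf and Sf3 genes (y axis) is drawn per library in the 6 groups (x axis), with all 16 small genes on the left and without Snrpn on the right. Lines and bars are the mean and SD of 3 libraries; sEVs (filled) lie above cells (open) in each cell type, and without Snrpn the neuron cells move from a mean of 1.21 to -0.98.

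Within astrocytes, sEVs and cells differed for 11 of the 45 genes, 5 higher and 6 lower, where 20.3% of all genes tested passed, 8.04% higher and 12.2% lower. U2af1l4 (log2 difference 1.7 ± 0.34 (SE), adjusted p = 0.0016), Lsm4 (log2 difference 1.25 ± 0.38 (SE), adjusted p = 0.026) and Lsm6 (log2 difference 1.42 ± 0.44 (SE), adjusted p = 0.029) rose, with Lsm10 and Sf3b5. Snrpa (log2 difference -2.09 ± 0.36 (SE), adjusted p = 5.0e-04), Sf3b4 (log2 difference -2.57 ± 0.51 (SE), adjusted p = 0.0016), Sf3a3 (log2 difference -1.42 ± 0.37 (SE), adjusted p = 0.01) and Sf3b1 (log2 difference -2.17 ± 0.66 (SE), adjusted p = 0.027) fell, with Sf3a2 and Prpf19. Libraries did not overlap for 11 genes in the higher direction (16.8% of all genes) and 12 in the lower (23.1%). Of the 11 calls 3 held under every alternative run; those of Sf3b5, Prpf19 and Lsm10 were lost in 19, 15 and 12 of 25. The count fell from 11 to 5 without astrocyte cell library 1, 2 or 3, and to 7 without astrocyte sEV library 1 or 3.

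Within microglia, 5 of the 45 genes differed, 1 higher and 4 lower, where 11.9% of all genes tested passed, 2.7% higher and 9.18% lower. Lsm7 rose (log2 difference 1.6 ± 0.43 (SE), adjusted p = 0.021), and Prpf6 (log2 difference -3.51 ± 0.77 (SE), adjusted p = 0.0062), Prpf19 (log2 difference -2.18 ± 0.67 (SE), adjusted p = 0.042), Sf3b4 (log2 difference -1.53 ± 0.47 (SE), adjusted p = 0.044) and Sf3a2 fell. Libraries did not overlap for 6 genes in the higher direction (9.26% of all genes) and 8 in the lower (18.5%). The calls of Prpf6 and Sf3a2 held under every alternative run, and those of Sf3b4, Prpf19 and Lsm7 were lost in 16, 15 and 5 of 25. With library totals in place of TMM the split turned to 7 higher and 2 lower, while the median of all genes moved from 0 to 0.14. The count was 3 without any 1 of the astrocyte or neuron cell libraries, microglia cell library 1 or 2 or microglia sEV library 1, and 2 without microglia cell library 3.

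Within neurons, 20 of the 45 genes differed, 10 higher and 10 lower, where 31.4% of all genes tested passed, 13.6% higher and 17.8% lower. Lsm6 (log2 difference 2.0 ± 0.45 (SE), adjusted p = 0.0029) and Lsm4 (log2 difference 1.93 ± 0.38 (SE), adjusted p = 0.001) were higher under every alternative run, and Lsm2 (log2 difference 2.4 ± 0.55 (SE), adjusted p = 0.0033) and Snrpd2 (log2 difference 1.91 ± 0.38 (SE), adjusted p = 0.001) under all but 1 of 25. Prpf18 (log2 difference 3.15 ± 1.06 (SE), adjusted p = 0.032) and Lsm14a (log2 difference 3.45 ± 1.27 (SE), adjusted p = 0.048) had larger log2 differences on few reads. Lsm14a had 5, 0 and 2 reads in neuron cells and 30, 21 and 19 in neuron sEVs, and its call was lost in 20 of 25 alternatives (adjusted p up to 0.30). Prpf18 had 2, 4 and 0 reads in neuron cells and its call was lost in 8 of 24. Besides Sf3a2, which had 0 sEV reads, the genes that fell most were Sf3b4 (log2 difference -4.74 ± 0.64 (SE), adjusted p = 3.1e-05), Prpf8 (log2 difference -3.47 ± 1.22 (SE), adjusted p = 0.038), U2af2 (log2 difference -3.45 ± 1.06 (SE), adjusted p = 0.02) and Sf3b1 (log2 difference -2.88 ± 0.70 (SE), adjusted p = 0.0047). Snrpb, the general SmB gene, was also lower (log2 difference -0.96 ± 0.31 (SE), adjusted p = 0.025). The calls of Prpf8, Snrpb and U2af2 were lost in 7 of 23, 7 of 25 and 4 of 25 alternatives, and 8 of the 20 calls held under every one run. Libraries did not overlap for 11 genes in the higher direction (22.8% of all genes) and 18 in the lower (31.0%). With library totals in place of TMM the split was 6 higher and 10 lower and the median of all genes moved from -0.10 to -0.47; the count fell to 12, 11 and 12 without neuron cell library 1, neuron cell library 3 and neuron sEV library 3.

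The difference between sEVs and cells was not shown to depend on the cell type. The edgeR interaction test called 0 of the 45 genes, with 9 at an unadjusted p under 0.05, where it called 3.96% of all genes tested. DESeq2 called 6 of them, Lsm2, Prpf6, Prpf8, Sf3a3, Sf3b4 and Snrpa, and edgeR with library totals in place of TMM also called 6. The shares of all genes called under those settings are not given here, so these counts are not read as particular to the members. Without 1 of the 3 astrocyte sEV libraries edgeR called Sf3b4 (adjusted p = 0.036, 0.044 and 0.041 without library 1, 2 and 3).

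Between cell types, the genes of the exchangeable Sm proteins SmN (Snrpn) and SmB (Snrpb) were described first. Snrpn was at 399.9, 421 and 355 CPM in astrocyte cells, 12.8, 8.5 and 11.4 CPM in microglia cells and 1877, 2965 and 1902 CPM in neuron cells. In sEVs it was at 833, 617 and 665 CPM from astrocytes, 0, 21.4 and 36.2 CPM from microglia and 1990.1, 2027 and 1948 CPM from neurons. The order neuron, astrocyte, microglia held in both fractions with no overlap between cell types. Neuron markers summed to 155 to 271 RPM in astrocyte cells and 91.0 to 217 RPM in astrocyte sEVs. The part of neurons in the astrocyte level of Snrpn was not tested. Against the mean of the other cell types, Snrpn was higher in neuron cells (log2 difference 5.09 ± 0.45 (SE), adjusted p = 7.0e-07) and neuron sEVs (log2 difference 4.08 ± 0.42 (SE), adjusted p = 1.4e-06), and lower in microglia cells (log2 difference -6.4 ± 0.64 (SE), adjusted p = 3.2e-07) and microglia sEVs (log2 difference -5.92 ± 0.59 (SE), adjusted p = 3.3e-07). Astrocyte sEVs were also higher than the mean of the other sEVs (log2 difference 1.84 ± 0.41 (SE), adjusted p = 0.0049). The mean sEV minus cell difference of Snrpn did not pass the test (log2 difference 0.50 ± 0.32 (SE), adjusted p = 0.28).

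Snrpb was at 96, 123 and 112 CPM in astrocyte cells, 179, 187 and 201 CPM in microglia cells and 129, 93.4 and 123 CPM in neuron cells. In sEVs it was at 102, 83.4 and 96 CPM from astrocytes, 154, 219 and 197 CPM from microglia and 58, 33.8 and 85.3 CPM from neurons. Microglia lay above the other cell types in both fractions, in cells (log2 difference 0.75 ± 0.25 (SE), adjusted p = 0.026) and in sEVs (log2 difference 1.35 ± 0.25 (SE), adjusted p = 2.8e-04). In cells this direction turned with library totals in place of TMM (log2 difference -0.052, adjusted p = 0.91). Of the summed Snrpn and Snrpb reads, Snrpn made up 76.1% to 80.6% in astrocyte cells, 4.35% to 6.67% in microglia cells and 93.6% to 96.9% in neuron cells. In sEVs its share was 87.4% to 89.1% from astrocytes, 0 of 85 reads (which allows up to 3.53%) to 15.5% from microglia and 95.8% to 98.4% from neurons. The astrocyte sEV share lay above that of astrocyte cells in every library, and the neuron and microglia ranges of cells and sEVs overlapped. In the microglia libraries the Snrpn share rests on 0 to 22 Snrpn reads, and neuron markers summed to 0 to 8.78 RPM in microglia cells and 0 to 32.2 RPM in microglia sEVs.

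**Figure D4:**
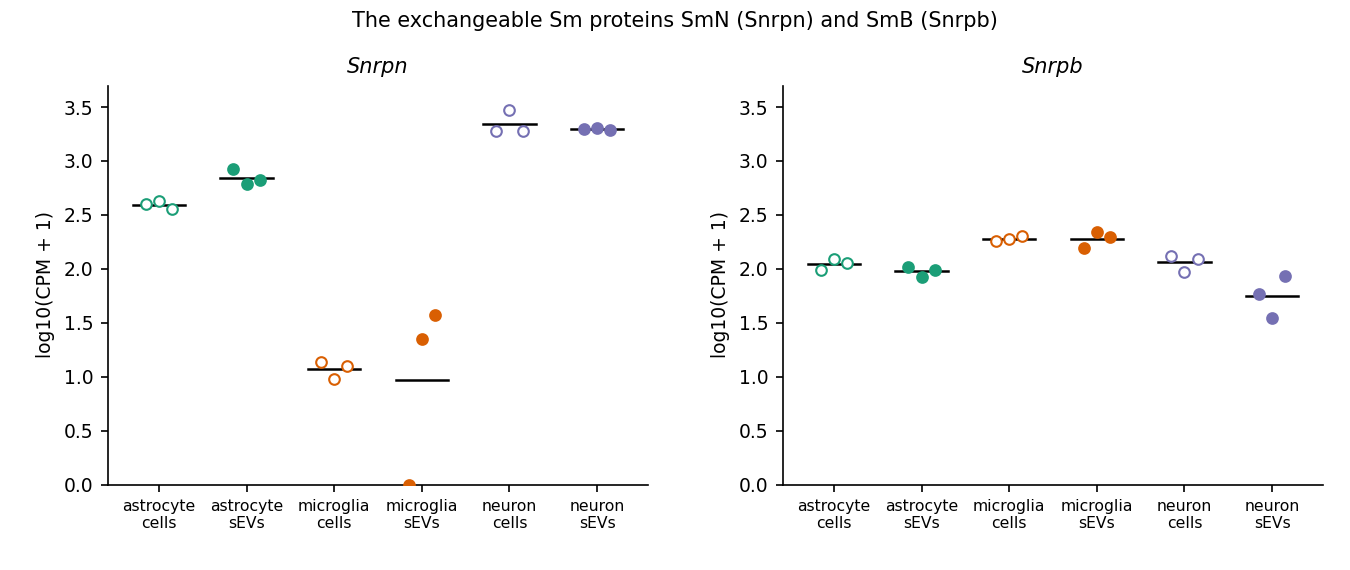
Levels of Snrpn (left) and Snrpb (right) as log10(CPM + 1) (y axes) are drawn per library in the 6 groups (x axes), open for cells and filled for sEVs, with the mean of 3 as a line. Snrpn falls from neurons to astrocytes to microglia in both fractions, and Snrpb is highest in microglia in both.

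Prpf38a, needed to activate the assembled spliceosome, was higher in microglia than in the other cell types in both fractions. It was at 67.4, 105 and 72 CPM in astrocyte cells, 348, 314 and 355 CPM in microglia cells and 82, 70.4 and 75.5 CPM in neuron cells. In sEVs it was at 129, 62.1 and 87.4 CPM from astrocytes, 542, 650.3 and 579 CPM from microglia and 53.1, 40.1 and 80.0 CPM from neurons. Microglia lay above both other types in every library, in cells (log2 difference 2.1 ± 0.25 (SE), adjusted p = 2.2e-06) and in sEVs (log2 difference 3.0 ± 0.24 (SE), adjusted p = 3.6e-08).

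Among cells, 9 of the 45 genes differed between microglia and the mean of the other types, 4 higher and 5 lower. Of all 8184 genes tested 42.4% passed, 1473 higher and 1999 (24.4%) lower. Sf3a3 (log2 difference 1.03 ± 0.29 (SE), adjusted p = 0.0092) and Prpf31 (log2 difference 1.12 ± 0.37 (SE), adjusted p = 0.021) were higher with Prpf38a and Snrpb. Lsm7 (log2 difference -1.86 ± 0.39 (SE), adjusted p = 0.001), Snrpa (log2 difference -1.44 ± 0.33 (SE), adjusted p = 0.002), Lsm6 (log2 difference -1.28 ± 0.45 (SE), adjusted p = 0.03) and Snrpd2 (log2 difference -1.05 ± 0.38 (SE), adjusted p = 0.033) were lower with Snrpn. The median log2 difference was -0.62 for small genes, 0.58 for large genes and -0.66 for all genes tested. With library totals in place of TMM 14 genes were called, 1 higher and 13 lower, and the median of all genes was -1.43; Sf3a3, Prpf31 and Snrpb were then not called, at log2 differences of 0.23, 0.31 and -0.052. Of the 9 calls 4 held under every alternative run, those of Lsm7, Snrpa, Prpf38a and Snrpn. The count fell to 4 without microglia cell library 3.

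Neuron cells differed for 4 of the 45 genes, 3 higher and 1 lower, where 27.4% of all genes tested passed, 19.7% higher and 7.66% lower. Lsm7 (log2 difference 1.35 ± 0.33 (SE), adjusted p = 0.0049) and Snrpd2 (log2 difference 1.03 ± 0.33 (SE), adjusted p = 0.026) were higher with Snrpn, and Prpf38a was lower (log2 difference -1.13 ± 0.27 (SE), adjusted p = 0.0046). Astrocyte cells differed for 2 genes, Snrpa, which was higher (log2 difference 1.19 ± 0.29 (SE), adjusted p = 0.0093), and Prpf38a, which was lower (log2 difference -0.97 ± 0.27 (SE), adjusted p = 0.019), where 15.9% of all genes passed, 10.8% higher and 5.1% lower. With library totals in place of TMM the splits were 5 higher and 0 lower for both. The shares of all genes called with library totals are not given here, so these splits are not read as particular to the members. The astrocyte count fell to 0 without astrocyte cell library 1 and to 1 without library 3.

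Microglia sEVs differed from the mean of the other sEVs for 20 of the 45 genes, 12 higher and 8 lower, where 50.0% of all genes tested passed, 20.3% higher and 29.7% lower. Of the 12 Prpf genes tested 5 were higher and 1 lower (median log2 difference 1.29), and of the 9 SF3 genes 3 were higher and 0 lower (median 0.016). Of the 7 LSm1 to LSm8 genes 4 were lower and 0 higher (median -1.17), and of the 4 other LSm genes 0 were called. The median over all genes was -0.69. Sf3a3 (log2 difference 2.33 ± 0.30 (SE), adjusted p = 5.7e-06), Sf3b4 (log2 difference 3.1 ± 0.46 (SE), adjusted p = 2.6e-05) and Sf3b1 (log2 difference 2.28 ± 0.54 (SE), adjusted p = 0.0022) were among the higher ones. Lsm6 (log2 difference -1.66 ± 0.41 (SE), adjusted p = 0.0029), Lsm4 (log2 difference -1.5 ± 0.35 (SE), adjusted p = 0.0017) and Prpf6 (log2 difference -2.4 ± 0.71 (SE), adjusted p = 0.0098) were among the lower ones.

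Neuron sEVs differed from the mean of the other sEVs for 13 genes, 8 higher and 5 lower. Of all 8184 genes tested 38.8% passed, 2191 (26.8%) higher and 985 lower. Snrpd2 (log2 difference 1.93 ± 0.30 (SE), adjusted p = 9.9e-05), Lsm2 (log2 difference 1.76 ± 0.43 (SE), adjusted p = 0.004) and Lsm4 (log2 difference 1.55 ± 0.31 (SE), adjusted p = 7.3e-04) were higher, and Sf3b4 (log2 difference -3.41 ± 0.61 (SE), adjusted p = 3.1e-04) and Sf3b1 (log2 difference -1.77 ± 0.62 (SE), adjusted p = 0.033) lower. With library totals in place of TMM the split was 7 higher and 9 lower. Astrocyte sEVs differed for 4 genes, 2 higher and 2 lower, where 20.0% of all genes passed, 14.2% higher and 5.74% lower: Snrpn and Prpf6 (log2 difference 1.72 ± 0.58 (SE), adjusted p = 0.046) were higher, and Prpf38a and Sf3a3 (log2 difference -1.11 ± 0.34 (SE), adjusted p = 0.027) lower. The call of Prpf6 was lost in 17 of 24 alternatives. With library totals that split was 4 higher and 0 lower. The shares of all genes called with library totals are not given here, so neither split is read as particular to the members. The astrocyte sEV count fell to 1 without astrocyte sEV library 2 and to 2 without neuron sEV library 1.

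Transcript structures differed between the fractions as well. Intron-retaining isoforms, which keep an intron that the annotated transcript removes, made up 729 of 18069 member reads in cells (4.03%) and 144 of 17487 in sEVs (0.823%). Their share was 5.60%, 6.18% and 6.46% in astrocyte cells and 0.221%, 2.01% and 1.26% in astrocyte sEVs. It was 1.11%, 1.32% and 1.77% in microglia cells and 0.741%, 0.185% and 0.337% in microglia sEVs. It was 4.38%, 1.93% and 4.68% in neuron cells and 1.11%, 0.865% and 0.895% in neuron sEVs, a mean difference of -2.71 percentage points. Snrpn holds many of the neuron reads, and without it the neuron shares were 4.61% to 8.23% in cells and 1.56% to 1.98% in sEVs, a mean difference of -5.08 percentage points. In each cell type every sEV library lay below every cell library. Over all genes the mean share went from 2.21% to 1.78% in astrocytes, from 1.98% to 1.29% in microglia and from 2.66% to 2.55% in neurons. The labels mention no molecular identifiers, and the exact binomial intervals (95%), such as 0.072% to 0.516% for the lowest astrocyte sEV share, cover counting error only.

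A few genes carried these reads. Intron-retaining isoforms of Sf3b1 had 276 reads in cells and 0 in sEVs, those of Snrpa1, which encodes a U2 protein, 168 and 0, and those of Prpf39 92 and 0. U2af1l4 went the other way, with 27 reads in cells and 68 in sEVs. Without Sf3b1 the mean difference in share was -3.40 percentage points in astrocytes, -0.916 in microglia and -1.34 in neurons, and the neuron groups then overlapped, at 1.09% to 2.93% in cells and 0.869% to 1.13% in sEVs.

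**Figure D5:**
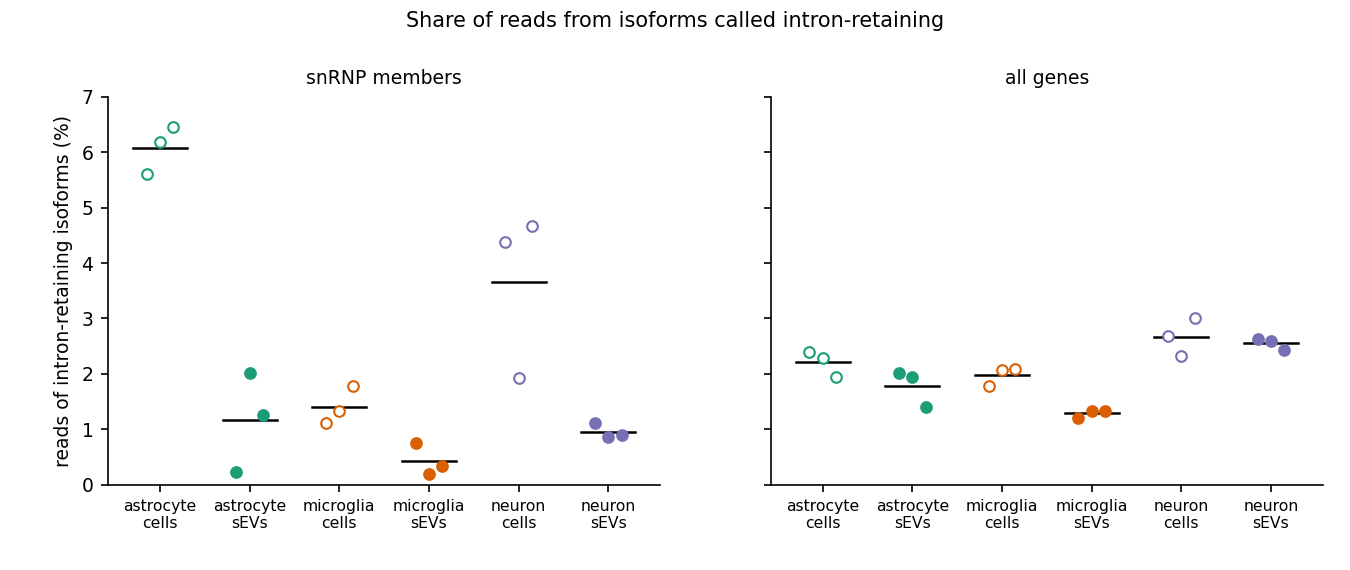
The share of reads from isoforms called intron-retaining, in percent (y axis), is drawn per library in the 6 groups (x axis) for the 50 snRNP genes on the left and all genes on the right; points are libraries, open for cells and filled for sEVs, and lines the mean of 3. For the snRNP genes sEVs lie below cells in each cell type, with astrocyte cells highest at 5.60% to 6.46%.

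Single isoforms were tested in the same way, over 9370 isoforms. Of 58 member isoforms tested, 25 passed for the mean of sEVs against cells, 7 higher and 18 lower. Of all 9370 isoforms tested 28.0% passed, 648 (6.92%) higher and 1971 lower. A full-splice match of Sf3b1 with an alternative 5′ end ranged over 42.1 to 140.4 CPM (median 105) in cells and 0 CPM in all 9 sEV libraries, with 494 reads in cells and 0 in sEVs (adjusted p = 1.1e-06). A 5′ fragment of Sf3b1, the isoform of that gene with most reads, ranged over 157 to 444 CPM (median 227) in cells and 0 to 198 CPM (median 40.1) in sEVs (log2 difference -2.56, adjusted p = 0.0063). Another full-splice match of Sf3b1, with both ends alternative, did not pass the test, at 9.36 to 146 CPM (median 38.1) in cells and 0 to 120.3 CPM (median 21.5) in sEVs (log2 difference -0.72, adjusted p = 0.62). Of these 3 Sf3b1 structures, 2 were lower. An intron-retaining isoform of Sf3b1, with 118 reads in cells and 0 in sEVs, was also lower (adjusted p = 4.1e-04). Another intron-retaining isoform (91 reads in cells and 0 in sEVs) and a 3′ fragment (26 and 51) did not pass the test.

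Snrpa1, whose gene level did not pass the test, had an intron-retaining isoform at 6.48 to 63.6 CPM (median 19.5) in cells and 0 CPM in all 9 sEV libraries (adjusted p = 7.2e-05). Its main full-splice match was at 55.6 to 113 CPM (median 79.1) in cells and 55.5 to 122 CPM (median 79.7) in sEVs (log2 difference 0.14, adjusted p = 0.82). Snrpa had a full-splice match that was lower, at 29.2 to 101 CPM (median 44.9) in cells and 0 to 26.2 CPM (median 0) in sEVs (log2 difference -3.26, adjusted p = 0.0088), and another, with 68 reads in sEVs and 0 in cells, that was higher (adjusted p = 0.025), both with alternative 5′ ends. Lsm7's reference match was at 6.48 to 41.7 CPM (median 24.1) in cells and 33.7 to 151 CPM (median 65.8) in sEVs (log2 difference 1.67, adjusted p = 1.6e-04). A full-splice match of Lsm6 was at 4.57 to 43.8 CPM (median 29.9) in cells and 31.8 to 133 CPM (median 83.3) in sEVs (log2 difference 1.64, adjusted p = 0.0021). A full-splice match of Sf3b4 was at 86.6 to 204 CPM (median 113) in cells and 0 to 93.5 CPM (median 15.6) in sEVs (log2 difference -3.37, adjusted p = 3.1e-04).

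Shares of fragments are given by the end they cover. Fragments of the 3′ end made up 1.56% to 2.06% of member reads in astrocyte cells and 3.73% to 5.76% in astrocyte sEVs, 0.849% to 1.11% in microglia cells and 2.75% to 10.7% in microglia sEVs, and 0.662% to 2.23% in neuron cells and 3.84% to 7.48% in neuron sEVs. Fragments of the 5′ end made up 7.11% to 7.49% in astrocyte cells and 0 to 2.52% in astrocyte sEVs, 14% to 16.1% and 6.01% to 7.56% in microglia, and 3.16% to 5.4% and 0 to 1.07% in neurons. Neither share overlapped between the fractions of a cell type. Sf3b1 held nearly all 5′ fragments: without it their share was at most 1.41% in any cell library and at most 0.213% in any sEV library, and the microglia groups overlapped. Over all genes the 3′ fragment share was also higher in sEVs, with means of 2.69% and 7.14% in astrocytes, 1.60% and 4.67% in microglia and 3.83% and 9.94% in neurons. The 5′ fragment share over all genes had means of 0.803% in cells and 0.568% in sEVs of astrocytes and 1.17% and 0.466% of neurons, while in microglia the means were 0.902% and 0.897% and the libraries overlapped.

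Related genes outside the 50 were counted from lists of the same machinery, beside the 14.5% higher, 19.5% lower and median of -0.15 over all genes. Of 24 tested other snRNP genes (30 listed), 6 were higher and 4 lower for the mean of sEVs against cells (median log2 difference -0.23, range -3.70 to 2.60). The 2 genes with the smallest adjusted p were both higher. Txnl4a, a small U5 protein, ranged from 9.58 to 124 CPM (median 65.9) in cells and from 56.3 to 489 CPM (median 145) in sEVs (log2 difference 1.39, adjusted p = 7.9e-05), and Zmat5 of the U11/U12 snRNP from 11.3 to 36.0 CPM (median 29.1) and from 55.9 to 120.2 CPM (median 81.5) (log2 difference 1.5, adjusted p = 1.0e-04). Of 20 tested genes of the Prpf19 complex and its partners (23 listed), 3 were higher and 3 lower, with a median of -0.12, and the lower ones included Xab2 (log2 difference -1.61, adjusted p = 0.012) and Rbm22 (log2 difference -1.27, adjusted p = 0.0036). Of 3 tested core genes of the exon junction complex (5 listed), Rbm8a was higher (0.64, adjusted p = 0.033) and Eif4a3 lower (-0.93, adjusted p = 0.012). Of 10 tested genes of Sm ring assembly (13 listed), 1 was higher, Gemin7 (0.82, adjusted p = 0.017), and 3 were lower, among them Coil (-1.56, adjusted p = 0.014), whose mean CPM went the other way (17.3 in cells and 21.6 in sEVs). Of 4 tested genes of LSm-linked mRNA decay (8 listed), Patl1, which binds the LSm1 to LSm7 ring, was higher (3.19, adjusted p = 0.0093) and 0 were lower.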

How the data were processed

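Raw read counts per isoform were deposited by the authors as 1 table of 18 libraries, with a gene label and structural category per isoform. The submitters' processing notes name minimap2 and GRCm39; versions, isoform caller and annotation were not given in the sources used here. Per the labels' protocols, cDNA was reamplified for 10 cycles, cells and sEVs formed separate pools, and 2 SMRT cells were used for each.

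Counts were summed over isoforms per gene label and tested with edgeR 4.0.16 (limma 3.58.1, R 4.3.3): filterByExpr by group, TMM, 1 quasi-likelihood fit to 18 libraries and 6 group means, Benjamini-Hochberg adjustment over all genes tested, threshold 0.05. SEs are the absolute log2 difference divided by the square root of F. The common dispersion was 0.31 for genes and 0.681 for isoforms. Counts were simulated with the common dispersion for every gene, no differences between cell types, and 200 of 8184 genes changed 4-fold, as many up as down. For the mean of sEVs against cells, 90% of 180 tested changed genes were recovered, with 4.71% false among the calls. In the data cell types differed and 33.9% of genes passed, so these are not error rates of the calls reported here. DESeq2 1.42.0 was an alternative. No 2 libraries held identical counts. Library numbers were not shown to pair cells with sEVs: correlations of same-numbered libraries ran from -0.081 to 0.080.

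Values are given for genes called in the mean or a within-type comparison, or between cell types, and for Snrpn and Snrpb. Some genes that were not called are given beside them. The isoforms named are a selection of those tested, called or not, and some with a small adjusted p are left out. The members, lists and naming rule were chosen with earlier results of these data known. RefSeq tables of GRCm38.p6 gave names, overlaps and promoters; no read coordinates were used. Protein lengths were not used here. 1 tested gene is counted in the totals but its own values are not reported here and it is not drawn.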

Additional observations from a re-analysis of the deposited data

How the results depend on the processing

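Counts of members called at an adjusted p under 0.05 differed by over 1.5 times from those reported under these settings. The shares of all genes called under each setting are not given here, so the counts do not tell whether members moved more than other genes. Without a filter on low counts, 5 were called within astrocytes (11 reported), 2 within microglia (5), 2 by the interaction test (0), 1, 4 and 2 for astrocyte, microglia and neuron cells against the others (2, 9 and 4), 1 and 8 for astrocyte and neuron sEVs (4 and 13), and 14 isoforms (25). With library totals in place of TMM, 9 were called within microglia, 6 by the interaction test, and 5 and 14 for astrocyte and microglia cells. With DESeq2, 17 were called within astrocytes, 6 by the interaction test and 4 for astrocyte cells. With only the 6 microglia libraries, 3 were called within microglia. For the mean of sEVs against cells, the count was 20 to 27 under these settings and with full-splice-match isoforms only. Of its 22 calls, 14 held under every alternative run; Lsm2, Lsm14a, Snrpd2, Prpf3, Prpf18, Prpf38b, Prpf39 and Sf3b2 did not, and 0 reversed. Within astrocytes, microglia and neurons 3 of 11, 2 of 5 and 8 of 20 calls held under every alternative, for astrocyte, microglia and neuron cells 0 of 2, 4 of 9 and 1 of 4, and for the sEVs in that order 1 of 4, 9 of 20 and 6 of 13. The causes were not tested.

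Leaving out 1 library at a time gave 19 to 25 calls for the mean, 5 to 12 within astrocytes, 2 to 6 within microglia, 11 to 21 within neurons and 0 to 1 for the interaction. It gave 0 to 3, 4 to 10 and 3 to 4 calls for astrocyte, microglia and neuron cells against the others, 1 to 5, 16 to 22 and 11 to 16 for the sEVs in that order, and 20 to 26 isoforms. The sEV minus cell difference of the log2 ratio of small to large reads ran from 1.52 to 1.67 in astrocytes, 0.65 to 0.84 in microglia and 0.95 to 1.4 in neurons. Without the 2 libraries rich in Gm42047, chosen after seeing the data, 23, 8, 5 and 16 members were called for the mean and within astrocytes, microglia and neurons.

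With the replicate number as a block, 3 members were called within microglia, 8 within astrocytes, 17 within neurons and 21 for the mean; the numbers were not shown to pair the libraries. The call for Snrpb in microglia cells reversed with library totals in place of TMM (log2 difference -0.052, adjusted p = 0.91).

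The ratio difference moved most with the mean of log2(CPM + 1) in place of sums (1.89, 1.20 and 1.78 in astrocytes, microglia and neurons), with Sf3b5 and Sf3b6 left out (1.90 in astrocytes and 1.76 in neurons), and, chosen after seeing the data, without Snrpn (1.43 in astrocytes and 1.85 in neurons) or without Snrpn and Prpf38a (1.11 in microglia and 1.90 in neurons). The intron-retaining share differed by -5.08 percentage points in neurons without Snrpn, the member with most reads, and by -3.40 in astrocytes without Sf3b1. A comparison by protein length was not run. 1 read equals over 1 CPM; whether depth limits the within-type calls was not tested.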

Other observations

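Snrpn was read as several structures beside its reference match, which had 4561 reads in cells and 3977 in sEVs. An isoform with an exon outside the annotation had 100 reads in cells and 2 in sEVs, and did not pass the test (adjusted p = 1.0). Another of that kind had 153 and 172 reads (adjusted p = 1.0). Of the 521 isoforms of the 50 genes, 337 were seen in 1 library, and 27 genes had an intron-retaining isoform, 105 such isoforms in all.

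U2af1l4 was higher in sEVs as a gene, while its reference match did not pass the test, at 0 to 40.9 CPM (median 30.1) in cells and 0 to 90.9 CPM (median 52.4) in sEVs (log2 difference 0.73, adjusted p = 0.73). A full-splice match of U2af1l4 with an alternative 3′ end had 6 reads in cells and 51 in sEVs (adjusted p = 1.0).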
